A study of Nannochloropsis oceanica with 6 samples.

Results

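The aminoacyl-tRNA synthetases and translation factors of Nannochloropsis oceanica IMET1, a unicellular marine alga, comprised 110 of the 10633 genes in the deposited tables. They were chosen by words in the Swiss-Prot description of each gene (tRNA ligase or synthetase, translation initiation factor, elongation factor, peptide chain release factor), with transcription factors and kinases left out and no measured value used. By role, 47 were synthetases, 39 initiation factors, 16 elongation factors and 8 release factors. The poly(A) RNA came from 6 column reactors inoculated from the same seed cells, all in Tris-buffered f/2-type medium at 25 °C under constant light of 80 µmol m-2 s-1. All reactors first received air with 5% CO2; 3 stayed at 5% (high CO2) and 3 were moved to 0.04% (low CO2), and cells were sampled 24 h later. Replicates were thus separate reactors of 1 strain, and in bulk RNA a change in the share of cells that express a gene and a change in RNA per cell cannot be told apart.

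Aminoacyl-tRNA synthetases join each amino acid to its tRNA, and algae carry nuclear genes for enzymes of the cytosol as well as of the chloroplast and mitochondrion. In the cytosol, the eukaryotic initiation factors (eIFs) bring the initiator tRNA and the mRNA to the ribosome, elongation factors 1 and 2 deliver charged tRNAs and move the ribosome along, and eRF1 with its GTPase partner eRF3 ends the chain at a stop codon. The organelles use factors of bacterial type for the same steps, among them IF-1, IF-2 and IF-3, EF-Tu, EF-Ts and EF-G, and the release factors RF1, RF2 and RF3.

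Library totals ranged from 4620234 to 6112822 expected counts, and genes of chlorophyll-binding antenna proteins, which mark a photosynthetic alga, had counts in every library for 23 of 23 genes and held 5.94% to 7.95% of all counts. A pair of libraries stood apart from the others of their group. A chi-square of the counts over genes, divided by its degrees of freedom and equal to 1 for sampling noise alone, was 3.3 between high CO2 replicates 1 and 2 but 19.3 and 16.1 between either and high 3. It was 3.7 between low CO2 replicates 2 and 3 but 48.0 and 43.5 between either and low 1.

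Across the family, transcript levels at low CO2 lay close to those at high CO2. Of the 108 genes with enough counts to test, 104 had a fitted change of less than 2-fold, and 1 passed edgeR's quasi-likelihood test at a Benjamini-Hochberg adjusted p below 0.05, the gene model of the release factor subunit ERF3A, which rose. The same test called 2.12% of all 9244 genes tested, 1.22% higher and 0.898% lower. With the threshold at an adjusted p below 0.1 it reached 5 of the 108 genes and 4.64% of all genes, and DESeq2 at 0.05 called 5 and 6.36%. The median log2 fold change (low minus high CO2) of the 108 genes was 0.12, against 0.01 over all genes tested, and 70 of them (64.8%) lay above 0, against 51.4% of all genes. An unadjusted p below 0.05 was reached by 21 genes, 18 of them higher and 3 lower, where 9.42% of all genes were higher and 9.18% lower by that rule. In FPKM (counts per gene length and library size), 31 genes were higher in all low CO2 libraries than in any high CO2 library, 6 were lower and 71 overlapped; over all genes 13.6% were higher and 11.8% lower. A setting added after the data were seen removed a smooth (loess) trend on log gene length from each library. That trend was fitted before TMM scaling and held each library's general level, while edgeR's TMM scaling was also kept. Wherever the length trend is said to be removed, fold changes thus shifted for genes in general, and not by gene length alone. The median was -0.0001 for the 108 genes and -0.10 for all genes. Of the 108, 54 (50%) lay above 0 against 39.2% of all genes, and 16 had another sign than before. By role, medians of roles with more than 2 genes then lay between -0.14 and 0.13.

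These counts rested on which libraries were in the fit. Without high 3, edgeR's test called the ERF3A model alone, where 0.727% of all genes were called and 0.513% called higher. Without low 1, edgeR's test called 22 of the 108 genes, 16 higher and 6 lower, where 7.02% of all genes were called higher and 10.2% lower. Without both high 3 and low 1, a comparison chosen after the data were seen, it called 49, 37 higher and 12 lower, against 17.2% and 19.4% of all genes. All of the 22 were among the 49. In 36 of the tested genes (33.3%, against 24.4% of all genes), low 2 and low 3 both lay above every high CO2 library in FPKM while low 1 did not.

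**Figure D1:**
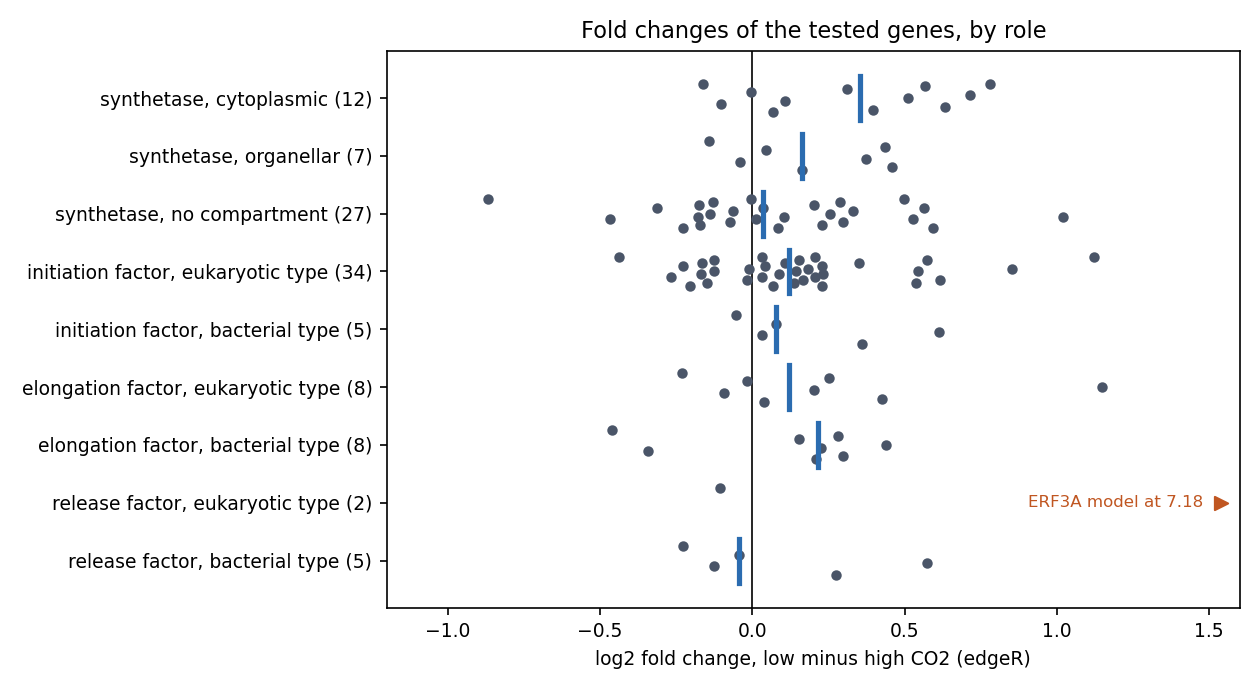
Each point is 1 of the 108 tested genes, placed by its edgeR log2 fold change (low minus high CO2) and its role, with the number of genes in brackets; blue bars are medians of roles with more than 2 genes. Most points lie within 0.5 of 0, the median of the cytoplasmic synthetases is 0.35, and the ERF3A model, drawn as an arrow, is off the scale at 7.18.

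All 20 amino acids had at least 1 synthetase gene. Glutamine had 1 gene, 13 amino acids had 2, 5 had 3, and methionine had 5. The description named the cytoplasm for 13 genes and the chloroplast or mitochondrion for 7, and gave no compartment for 27. Of the 46 synthetases tested, edgeR's test called 0; 13 had an unadjusted p below 0.05 (18.6% of all genes did), 12 of them higher (9.42% of all genes). DESeq2 called 3, where it called 6.36% of all genes, and limma on log2(FPKM + 1) called 0. The share of all genes that limma called was not worked out, so limma counts here and below have no such comparison. A second gene described as a cytoplasmic tryptophan synthetase (NO17G00980) was not tested, since it had 7.65 counts in high 2, 6.66 in low 3 and 0 elsewhere.

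The cytoplasmic synthetases had the highest median log2 fold change of any role with more than 2 genes, 0.35 over 12 tested genes, or 0.13 with the length trend removed. In 9 of the 12 it lay above 0, and 5 were higher at low CO2 without overlap in FPKM, against 51.4% and 13.6% of all genes. The cysteine enzyme (NO30G00960) measured 15.99, 18.6 and 13.7 FPKM at high CO2 and 24.6, 28.2 and 30.2 FPKM at low CO2. Every low CO2 library lay above every high CO2 library, with a log2 fold change of 0.72 ± 0.16 (SE) and an adjusted p of 0.0771 in edgeR's test, past the threshold in DESeq2 (adjusted p 0.0131). The tryptophan enzyme (NO17G01040) showed the same order, with 13.2, 14.6 and 11.9 FPKM at high CO2 against 17.1, 22.5 and 22.2 FPKM at low CO2. Its log2 fold change was 0.57 ± 0.13 (SE), with an adjusted p of 0.0870 in edgeR's test and 0.0188 in DESeq2. The expected counts of NO17G01040 were not whole numbers in 5 libraries, and no sum tried with neighbouring loci was whole in every library. Any division of its reads with another locus was therefore not resolved.

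For other cytoplasmic enzymes, low 1 sided with the high CO2 libraries. The glutamate enzyme (NO08G02860) measured 17.1, 15.2 and 9.07 FPKM at high CO2, 16.7 FPKM in low 1, and 29.1 and 29.2 FPKM in low 2 and low 3. Its log2 fold change of 0.78 ± 0.26 (SE) did not pass edgeR's test (adjusted p 0.172); without low 1 it was 0.95 with an adjusted p of 0.0304, and without both outlying libraries 0.74 with an adjusted p of 1.5e-05. In the isoleucine enzyme (NO06G03760), low 1 was the lowest of all libraries at 12.6 FPKM, below the high CO2 range of 14.1 to 18.2 FPKM, while low 2 and low 3 stood at 28.8 and 28.6 FPKM. A gene for the aspartate enzyme (NO17G01200) did separate the groups, at 18.3 to 28.4 FPKM against 29.0 to 44.2 FPKM, though low 1 exceeded high 1 by little. The threonine enzyme (NO16G01440), among the most abundant of the cytoplasmic set, measured 45.5 ± 6.3 FPKM at high CO2 and 59.9 ± 17.3 FPKM at low CO2 (SD, n = 3), and low 1 at 40.2 FPKM lay below the high CO2 range. By contrast, the other abundant one, a further aspartate gene (NO13G01530), measured 78.2 ± 2.8 and 86.0 ± 4.0 FPKM (SD, n = 3) with no overlap, but its log2 fold change in counts was 0.07 and turned to -0.08 with the length trend removed.

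Over the cytoplasmic set, low 1 deviated from low 2 and low 3 by a median of -0.29 in log2 CPM (counts scaled by library size), and high 3 from high 1 and high 2 by -0.14. Over all genes tested these medians were -0.02 and -0.01. Without low 1, edgeR's test called 6 of the 12 genes, all higher, where 7.02% of all genes were called higher. Without both libraries it called 7, all higher, against 17.2% of all genes.

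**Figure D2:**
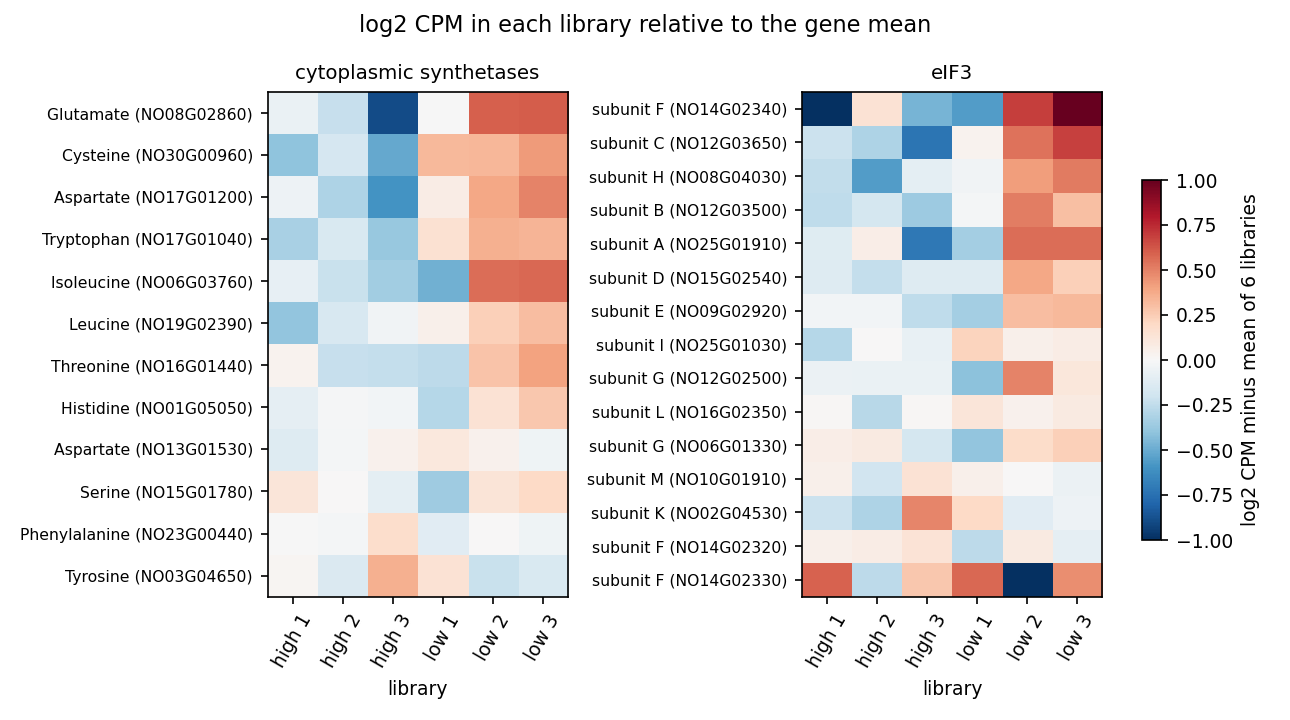
Colours give log2 CPM in each library minus the gene's mean over 6 libraries, for the 12 tested cytoplasmic synthetases (left) and the 15 eIF3 gene models (right), ordered by fold change; the scale ends at -1 and 1. Low 2 and low 3 are red for most upper rows of both panels, while low 1 is pale or blue in many of them.

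The 7 synthetases of chloroplast or mitochondrion had a median log2 fold change of 0.16. Of these, 5 lay above 0 and 3 were higher without overlap in FPKM, against 51.4% and 13.6% of all genes. The arginine enzyme (NO04G02920) measured 31.9, 35.4 and 29.5 FPKM at high CO2 and 35.5, 51.0 and 51.4 FPKM at low CO2. Low 1 lay just above the highest high CO2 library, and the log2 fold change was 0.43 ± 0.14 (SE) with an adjusted p of 0.164 in edgeR's test. The phenylalanine enzyme (NO04G03520) stood at 37.6 to 49.9 FPKM against 58.4 to 63.7 FPKM, with low 1 the highest of all libraries. The most abundant of the 7, the glutamate enzyme (NO08G03520), supplies the glutamyl-tRNA from which plants and algae also make chlorophyll precursors. It stayed at 125.2 ± 2.0 FPKM at high CO2 and 127.6 ± 7.2 FPKM at low CO2 (SD, n = 3), and its log2 fold change of -0.04 was 0.03 under scaling by library size alone. The valine enzyme (NO05G00270) overlapped likewise, at 60.7 ± 2.7 and 57.6 ± 9.5 FPKM (SD, n = 3).

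Among the 27 synthetases with no compartment in the description, the median log2 fold change was 0.04, and genes for the same amino acid had fold changes of opposite sign. The methionine genes show this. The most abundant (NO05G00870) measured 165, 169 and 208 FPKM at high CO2 and 159, 130 and 129 FPKM at low CO2, so that all low CO2 libraries were lower and low 1 was the closest to the high CO2 range. Its log2 fold change was -0.47 ± 0.20 (SE), with an adjusted p of 0.270 in edgeR's test. Another (NO03G03530) measured 39.0, 39.2 and 42.8 FPKM at high CO2 and 55.2, 65.3 and 67.5 FPKM at low CO2, with no overlap. Its log2 fold change was 0.56 ± 0.12 (SE), and it passed DESeq2 (adjusted p 0.00684) but not edgeR's test (adjusted p 0.0663).

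The difference was smaller for the locus as a whole. The expected counts of NO03G03530 and of the neighbouring NO03G03540, also described as a methionine synthetase, were not whole numbers in any library, whereas their sum was whole in every library. Summed, the pair measured 181, 181 and 194 CPM at high CO2 and 268, 175 and 188 CPM at low CO2, where low 1 was highest and the groups overlapped. The summed log2 fold change was 0.19 ± 0.17 (SE), with an adjusted p of 0.590 in edgeR's test. A similar division touched the lysine gene NO01G01770, the largest fall among all 108 genes in fold. It measured 28.5, 31.7 and 43.0 FPKM at high CO2, 40.1 FPKM in low 1, and 6.17 and 11.4 FPKM in low 2 and low 3. Its counts and those of the neighbouring NO01G01760, described as inositol-3-phosphate synthase, summed to whole numbers in every library; the sum was 191 ± 5.5 CPM at high CO2 and 174 ± 29.9 CPM at low CO2 (SD, n = 3), a log2 fold change of -0.13.

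The serine enzyme (NO12G01920) was the other abundant gene of this set. It measured 136, 133 and 138 FPKM at high CO2 and 112, 112 and 106 FPKM at low CO2, ranges that did not overlap. In CPM, however, low 1 stood at 209.5, closer to the high CO2 range of 218 to 236 than to low 2 and low 3 at 169 and 165. The log2 fold change was -0.31 ± 0.13 (SE), which did not pass edgeR's test with all libraries (adjusted p 0.25) and passed without low 1 (adjusted p 0.0241). A proline gene (NO03G01750) was higher at low CO2 without overlap, at 8.44 to 11.4 FPKM against 11.9 to 16.7 FPKM, with a log2 fold change of 0.53.

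Summing the synthetase genes of each amino acid gives 1 level per amino acid and library. The summed level was higher in all low CO2 libraries for 8 amino acids (arginine, aspartate, cysteine, glutamate, glycine, leucine, phenylalanine and tryptophan), lower in all for 2 (asparagine and serine) and overlapping for 10. Cysteine had the largest ratio of low over high CO2 means, 1.38, at 56.4 to 94.5 CPM against 100 to 121 CPM; its lowest value was in high 3. That ratio rested on NO19G01710, which divided reads with the locus beside it and had a log2 fold change of 1.02 alone and 0.20 summed with that locus. Without it the ratio for cysteine was 1.17 and the groups overlapped. Glycine, whose genes divided no reads, followed at 1.26, with 225, 228 and 187 CPM against 265, 268 and 273 CPM. Serine had the lowest ratio, 0.890, with 412, 400 and 403 CPM against 348, 364 and 369 CPM. Methionine, with the highest sums, was at 469 ± 50.1 and 477 ± 51.4 CPM (SD, n = 3). A further comparison, chosen after the data were seen, left out genes whose counts became whole when summed with loci beside them. In it, 7 of 19 amino acids were higher, 2 lower and 10 overlapping. Arginine then had the largest ratio, 1.35, from 1 gene, ahead of glycine at 1.26. Serine, also with 1 gene left, remained the lowest at 0.805. Tryptophan, among the higher ones, kept NO17G00980 and NO17G01040, whose counts were not whole but for which no such loci were found. No test was run on these sums. No share over all genes was worked out for sums of this kind, so the counts of higher and lower amino acids have no baseline.

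**Figure D3:**
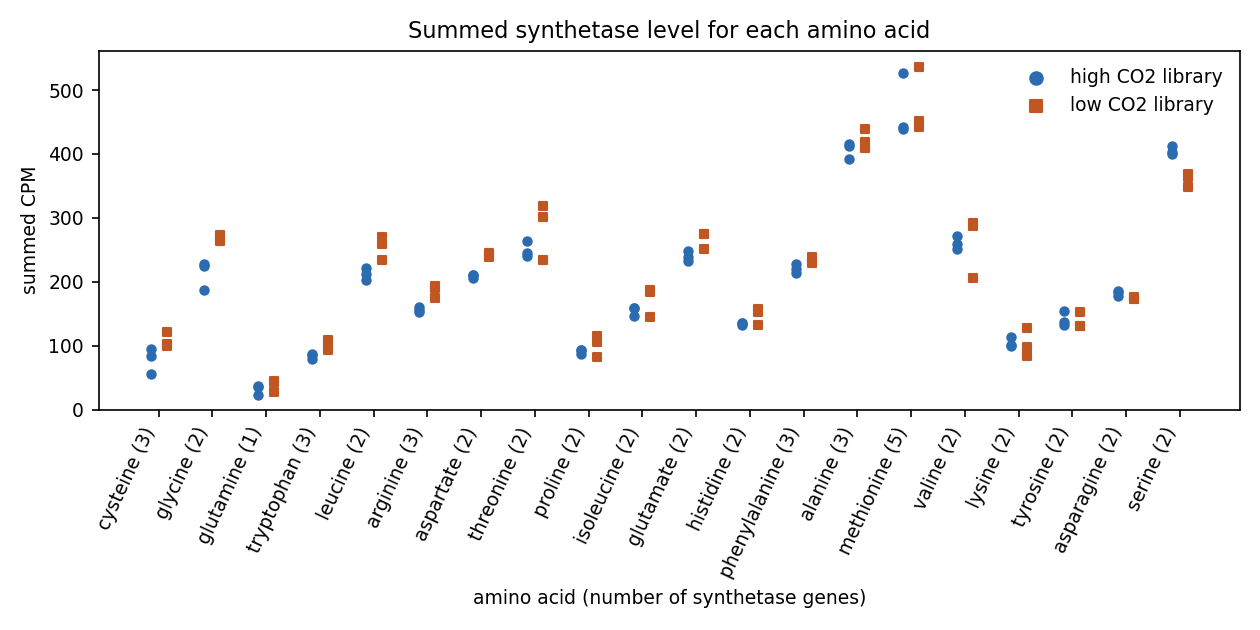
Each amino acid has its summed synthetase CPM in 3 high CO2 libraries (circles) and 3 low CO2 libraries (squares), with amino acids ordered by the ratio of group means and the number of genes in brackets. The 8 amino acids with higher sums at low CO2 include glycine (ratio 1.26) and cysteine (1.38, or 1.17 with overlap without a gene that divided reads), and serine (0.890) is lowest.

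The initiation factors comprised 34 genes of eukaryotic type and 5 of bacterial type, all tested. Their median log2 fold changes were 0.12 and 0.08. EdgeR's test called 0 of the 39. In it, 4 had an unadjusted p below 0.05 (18.6% of all genes did), all higher (9.42% of all genes). DESeq2 called 1, where it called 6.36% of all genes, and limma on log2(FPKM + 1) called 0. Among the 34 eukaryotic factors, 6 genes were higher and 1 lower at low CO2 without overlap in FPKM, where 13.6% and 11.8% of all genes were.

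eIF3 is the largest initiation factor, a scaffold of many subunits that joins the small ribosomal subunit with the other factors, and 15 gene models carried its name. Of these, 11 had a log2 fold change above 0 (51.4% of all genes did), with a median of 0.23. In FPKM, 5 were higher without overlap (13.6% of all genes were). Subunit C (NO12G03650), a core subunit, measured 32.0, 30.2 and 26.6 FPKM at high CO2 and 34.9, 53.7 and 56.2 FPKM at low CO2. The groups did not overlap, and low 1 was nearer to the high CO2 libraries than to low 2 and low 3. The log2 fold change was 0.85 ± 0.21 (SE), with an adjusted p of 0.0994 in edgeR's test and 0.0119 in DESeq2. Subunit B (NO12G03500), which with subunit A forms the base of the complex, measured 34.5, 36.0 and 29.9 FPKM against 37.97, 62.6 and 54.1 FPKM. It had a log2 fold change of 0.54 ± 0.16 (SE) and an adjusted p of 0.144 in edgeR's test. Subunit A (NO25G01910) overlapped between groups, at 44.3, 48.4 and 27.1 FPKM against 35.1, 74.1 and 72.8 FPKM.

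Across the 15 eIF3 models, low 1 deviated from low 2 and low 3 by a median of -0.44 in log2 CPM, the most negative among the roles and complexes with more than 3 genes, while high 3 deviated by 0.05. Without low 1, edgeR's test called 4 of them higher (subunits A, B, C and D), where 7.02% of all genes were called higher. Without both outlying libraries it called 7 higher, or 6 of 12 without the models of subunit F, against 17.2% of all genes. The 3 models of subunit F (NO14G02320, NO14G02330 and NO14G02340) lie next to each other and divided their reads. Alone, their log2 fold changes were -0.17, -0.17 and 1.12, while their sum, whole in every library, was 106 ± 3.5 CPM at high CO2 and 100 ± 12.5 CPM at low CO2 (SD, n = 3), a log2 fold change of -0.08. With the subunit F models left aside, 10 of 12 lay above 0. Subunit H (NO08G04030) was higher without overlap at 8.42 to 10.8 against 11.3 to 18.9 FPKM, and had a log2 fold change of 0.67 when summed with the locus with which it divided reads, which did not pass edgeR's test (adjusted p 0.186).

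eIF2, a GTPase of 3 subunits, carries the initiator tRNA, and eIF2B recharges it with GTP. The 3 eIF2 genes overlapped between groups, with log2 fold changes of -0.23 to 0.21. In the 6 eIF2B genes the median was -0.05. A putative subunit 2-like gene (NO28G01710) was the most abundant of them, at 253, 267 and 299 FPKM at high CO2 and 254, 220 and 192 FPKM at low CO2; low 1 fell within the high CO2 range. Subunit delta (NO15G01310) was lower without overlap, though by little, at 26.4 ± 1.5 against 24.0 ± 0.9 FPKM (SD, n = 3).

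The 5 genes of the cap-binding factor eIF4, which recruits the mRNA, had log2 fold changes of 0.03 to 0.57. In FPKM, 1 was higher without overlap (13.6% of all genes were). With the length trend removed, NO04G03600 and NO14G01560 were at -0.06 and -0.13, and the lowest of the 5, NO10G03390, was at -0.02 without low 1. eIF1 (NO24G02200), which helps to select the start codon, was the most abundant eukaryotic initiation factor. It measured 247, 274 and 326 FPKM at high CO2 and 263, 185 and 199 FPKM at low CO2, so that low 1 fell among the high CO2 libraries. The log2 fold change was -0.44 ± 0.22 (SE), past the threshold only when low 1 was left out (adjusted p 0.0271, or 2.2e-05 without high 3 as well, edgeR), and -0.21 when its counts were summed with those of the adjoining NO24G02210, with which it divided reads. eIF5A (NO04G01790), which helps the ribosome past difficult peptide bonds, measured 145 ± 7.8 FPKM at high CO2 and 168 ± 26.1 FPKM at low CO2 (SD, n = 3), with low 1 again inside the high CO2 range.

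Of the bacterial-type initiation factors, IF-3 (NO23G01740), which keeps the ribosomal subunits apart before initiation, was the most abundant. It measured 267, 253 and 318 FPKM at high CO2 and 346, 389 and 390 FPKM at low CO2. All low CO2 libraries lay above all high CO2 libraries, with a log2 fold change of 0.36 ± 0.13 (SE) and an adjusted p of 0.202 in edgeR's test; without both outlying libraries the adjusted p was 3.9e-06. IF-2 (NO27G00570), the GTPase that places the initiator tRNA, gave opposite directions in the 2 units. Its level was 325 ± 60.8 FPKM at high CO2 and 259 ± 28.1 FPKM at low CO2 (SD, n = 3), lower without overlap, while its log2 fold change in counts was 0.08. The gene length that the deposited tables list for it also differed between libraries, from 1009 bases in high 3 to 1759 bases in low 3, and FPKM divides by that length.

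The 16 elongation factors included the most abundant transcripts of the family. EdgeR's test called 0 of them. In it, 2 had an unadjusted p below 0.05 (18.6% of all genes did), both lower (9.18% of all genes). DESeq2 called 0, where it called 6.36% of all genes, and limma on log2(FPKM + 1) also called 0. The median log2 fold change was 0.12 for the 8 genes of eukaryotic type and 0.22 for the 8 of bacterial type.

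EF-1alpha delivers charged tRNAs to the ribosome, and its adjacent genes NO22G01450 and NO22G01440 had the highest and the second highest mean levels of all 110 genes. NO22G01450 measured 1086, 1093 and 1260 FPKM at high CO2 and 949, 1232 and 1185 FPKM at low CO2, with the groups overlapping. NO22G01440 measured 356, 316 and 213 FPKM at high CO2 and 326, 451 and 464 FPKM at low CO2, also overlapping. In high 3 the first was at its highest and the second at its lowest, and summed they gave 503.5 ± 11.6 CPM at high CO2 and 537 ± 46.1 CPM at low CO2 (SD, n = 3), a log2 fold change of 0.09 with an adjusted p of 0.665 in edgeR's test. Their counts were whole in each library, so the counts gave no sign that the genes divided reads. The listed lengths were 537 bases for NO22G01450 and 780 bases for NO22G01440. Their sequences were not compared, and whether they are copies or parts of the same gene was not tested.

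Elongation factor 2 (NO02G03250), which moves the ribosome by 1 codon, separated the groups, at 144, 138 and 158 FPKM against 163, 184 and 186 FPKM. Its log2 fold change was 0.20 ± 0.11 (SE), with an adjusted p of 0.365 in edgeR's test, and -0.02 with the length trend removed. EF-1gamma, part of the complex that reloads EF-1alpha with GTP, had a well expressed gene (NO17G00870) at 78.9 to 85.3 against 100.1 to 109 FPKM and a weak one (NO24G00490) at 6.17, 6.79 and 0.89 against 8.99, 10.95 and 12.1 FPKM. Neither overlapped between groups, and the weak gene's log2 fold change of 1.15 ± 0.57 (SE) included high 3, where it had 3 counts.

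EF-G (NO08G02710), the bacterial-type counterpart of elongation factor 2, was higher at low CO2 without overlap. It measured 180, 184 and 190 FPKM at high CO2 and 224, 226 and 229 FPKM at low CO2. Low 1 sided with its own group, and the log2 fold change was 0.22 ± 0.11 (SE) with an adjusted p of 0.312 in edgeR's test. With the length trend removed it was 0.0008, where the median of all genes was -0.10. Elongation factor 4 (NO28G00780), a GTPase related to EF-G, was also higher without overlap, at 39.6 ± 3.4 against 50.4 ± 4.5 FPKM (SD, n = 3). A pair of factors was lower without overlap. EF-P (NO03G04340), the bacterial counterpart of eIF5A, measured 85.7, 76.9 and 68.5 FPKM at high CO2 and 52.0, 65.3 and 56.7 FPKM at low CO2, a log2 fold change of -0.46 ± 0.17 (SE) with an adjusted p of 0.220 in edgeR's test. EF-Ts (NO20G02570), which reloads EF-Tu, measured 86.1, 78.1 and 92.6 FPKM against 68.7, 76.1 and 71.9 FPKM, a log2 fold change of -0.34 ± 0.13 (SE). EF-Tu itself (NO04G00980) was at 53.8, 53.9 and 65.4 FPKM against 69.1, 66.7 and 65.9 FPKM, higher at low CO2 with high 3 almost level with low 3. In CPM the groups overlapped, at 94.9, 96.2 and 123 against 130, 110 and 109. The log2 fold change was 0.15 ± 0.15 (SE), with an adjusted p of 0.608 in edgeR's test.

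As a share of all counts, elongation factors held 0.270%, 0.270% and 0.281% at high CO2 and 0.299%, 0.328% and 0.329% at low CO2, without overlap. All shares here are of raw library totals, without the TMM scaling behind CPM and fold changes. Libraries can rank otherwise in CPM, where EF-G (NO08G02710) was at 1134 in low 1 and at 1005 and 1018 in low 2 and low 3. The shares of both the eukaryotic and the bacterial elongation factors separated in the same way. So did that of the 5 bacterial-type initiation factors alone, at 0.0763%, 0.0734% and 0.0778% against 0.0799%, 0.0999% and 0.0992%. EF-G held most of the counts of the bacterial elongation factors in every library, with means of 901 CPM at high CO2 and 1052 CPM at low CO2. The bacterial elongation sum without EF-G was not compared. Synthetases held 0.395 ± 0.014% at high CO2 and 0.446 ± 0.048% at low CO2 (SD, n = 3), and initiation factors 0.379 ± 0.001% and 0.421 ± 0.043%. In both, low 1 lay below low 2 and low 3 and the groups overlapped in these raw shares. For the synthetases this overlap depended on the scaling. Summed in CPM, they were higher in every low CO2 library, low 1 included, than in any high CO2 library. In raw shares release factors overlapped too, at 0.124 ± 0.010% and 0.131 ± 0.004%. No test was run on these sums over chosen genes.

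**Figure D4:**
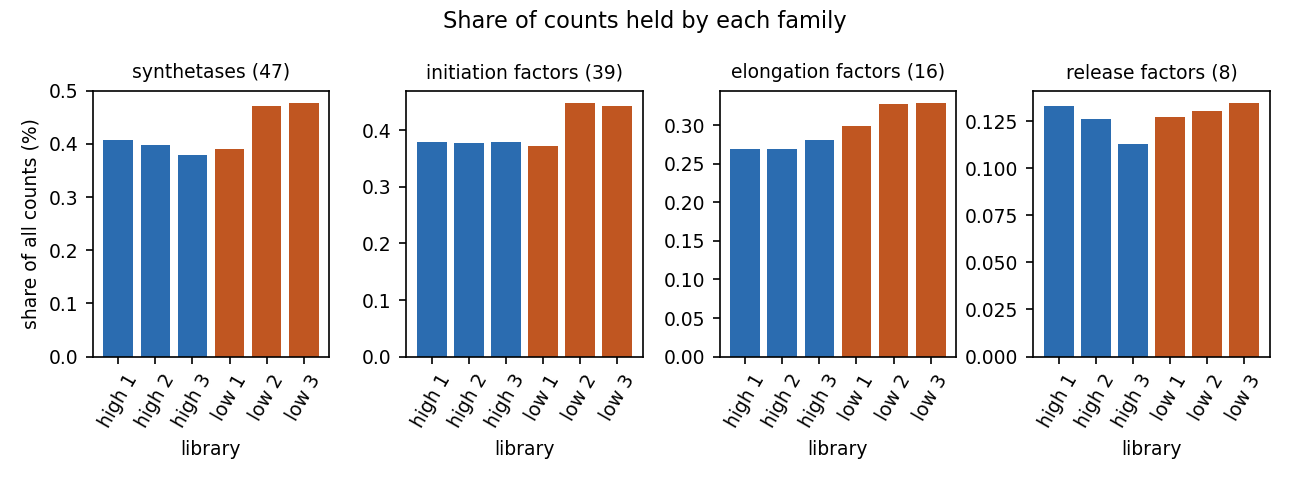
Bars give the share of all counts in each library held by the 47 synthetases, 39 initiation factors, 16 elongation factors and 8 release factors, high CO2 in blue and low CO2 in orange. Shares are of raw library totals, without TMM scaling, and the synthetase bars, which overlap here, do not overlap as summed CPM. Elongation factors rank above all high CO2 bars in each low CO2 library (0.299% to 0.329% against 0.270% to 0.281%), and low 1 is the lowest low CO2 bar in each panel.

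The release factors held the only gene that passed the test with all libraries. ERF3A (NO14G02430), the GTP-binding partner of eRF1, had 2.08, 0 and 0 expected counts at high CO2 and 70.2, 144 and 189 at low CO2, or 0.24, 0 and 0 FPKM against 9.15, 15.5 and 18.6 FPKM. Every low CO2 library was far above every high CO2 library, low 1 included. The fitted log2 fold change was 7.18 ± 0.66 (SE), with an adjusted p of 0.00409 in edgeR's test. With rounded counts of 2 over the whole high CO2 group and 403 at low CO2, the ratio of the shares of counts was 185.5. Its 95% exact counting interval was 51.0 to 1537. That interval covers counting error only and treats the estimated counts as reads. It leaves out the division of reads with a neighbouring locus, described below. The authors' deposited table lists this gene with a log2 fold change of 7.41 and an adjusted p of 2.27e-09, the only one of the 110 genes among the 217 of that table.

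The neighbouring locus NO14G02420 divided reads with the ERF3A model. Its Swiss-Prot description is a manganese-transporting ATPase (PDR2), but another annotation column of the deposited tables gives it polypeptide release factor 3 as well. It is 7522 bases long against 1905 bases for the ERF3A model. Its counts were 1309, 1265 and 1060 at high CO2 and 921, 1758 and 1800 at low CO2, and adding the ERF3A counts gave a whole number in every library. The ERF3A model held 0.159%, 0% and 0% of that sum at high CO2 and 7.09%, 7.59% and 9.49% at low CO2. The sum itself measured 247 ± 11.7 CPM at high CO2 and 283 ± 47.5 CPM at low CO2 (SD, n = 3), with low 1 below all high CO2 libraries, and its log2 fold change of 0.20 ± 0.15 (SE) did not pass edgeR's test (adjusted p 0.492). Whether the division of reads between the 2 loci or a change in transcription set the ERF3A values cannot be told apart from these tables.

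**Figure D5:**
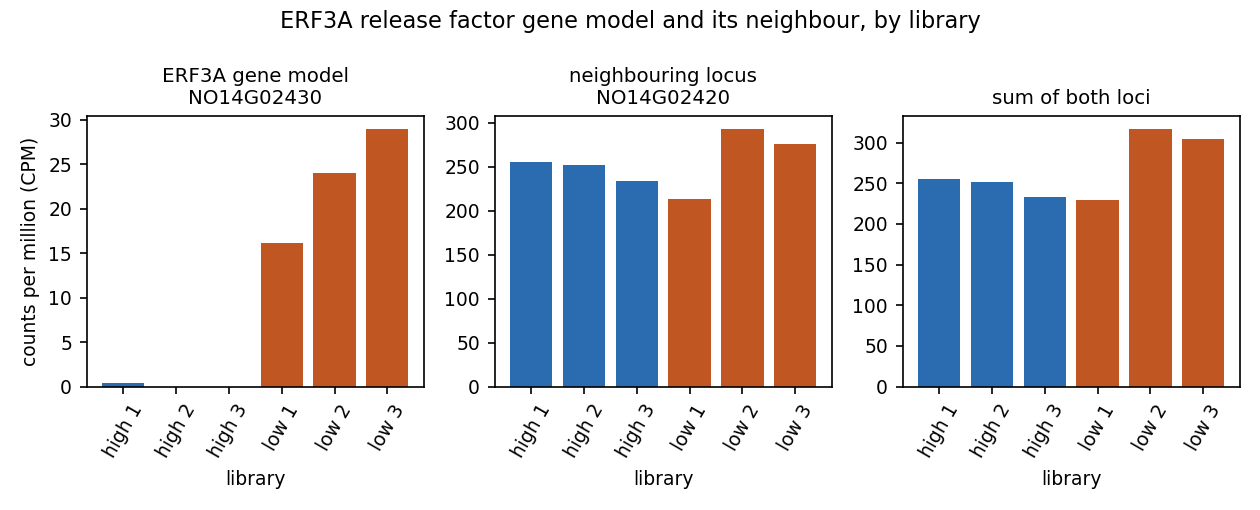
Bars give CPM in each library for the ERF3A gene model, for the neighbouring locus with which it divided reads, and for their sum, each panel with its own axis from 0. The ERF3A model is at or near 0 in all high CO2 libraries and present in all low CO2 libraries, whereas the sum overlaps between groups (247 ± 11.7 against 283 ± 47.5 CPM, SD, n = 3).

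The other release factors differed less. eRF1 (NO11G00740), which reads the stop codon, measured 38.7, 35.6 and 20.04 FPKM at high CO2 and 29.9, 30.2 and 31.0 FPKM at low CO2, where high 3 alone was below the low CO2 libraries; the direction of its log2 fold change of -0.11 turned between settings. RF3 (NO13G02120), which in bacteria frees RF1 and RF2 from the ribosome, was the most abundant release factor at 183, 183 and 160 FPKM against 250, 200 and 206 FPKM, higher without overlap. Low 1 was the highest, and the log2 fold change of 0.28 ± 0.16 (SE, adjusted p 0.388 in edgeR's test) was 0.09 without low 1. This gene divided reads with a ribosomal protein P2 gene beside it (summed log2 fold change 0.20). RF2 had an abundant gene (NO12G00460) at 136 ± 11.3 and 123 ± 19.4 FPKM (SD, n = 3), overlapping, a weak one (NO27G00070) at 6.45 to 10.4 against 13.3 to 15.3 FPKM, higher without overlap, and a model (NO12G00470) at 0 in all libraries.

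Division of reads reached well beyond these examples. In 29 of the 110 genes at least 1 library had a count more than 0.02 from a whole number, and for 26 of them the sum with 1 or 2 neighbouring loci was whole in every library, 21 such runs of loci in all. When each run was counted as 1 gene, edgeR's test called 0 of the runs and 0 of the other synthetases and factors. Of the 22 genes called without low 1, 7 lay in such a run, and of the 49 called without both outlying libraries, 12 did.

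Genes of neighbouring steps had medians near or below 0. Of 86 other genes of tRNA charging, tRNA modification and the translation cycle, 80 were tested, and their median change was 0.01 on the log2 scale. EdgeR's test called 2 (2.50%, against 2.12% of all genes), both tRNA methyltransferases that rose. The cytosine-34 enzyme (NO06G00650), which modifies the first anticodon base, measured 9.5, 9.68 and 7.32 FPKM at high CO2 and 18.0, 19.3 and 22.6 FPKM at low CO2, log2 fold change 1.11 ± 0.16 (SE) and adjusted p 0.0198. The catalytic subunit of the adenine-58 enzyme (NO04G02070), trmt61a, measured 16.3, 15.3 and 18.6 FPKM against 28.5, 35.4 and 33.7 FPKM, log2 fold change 0.89 ± 0.16 (SE) and adjusted p 0.0388. Low 1 was the lowest low CO2 library in each, yet above every high CO2 library, and neither gene passed edgeR's test when any library other than low 1 was left out. With the length trend removed, the cytosine-34 enzyme kept its call (adjusted p 0.0363, edgeR) and trmt61a did not (0.0927). Ribosomal proteins without an organellar word in their description had a median of -0.01 over 79 tested genes, 1 called lower, and organellar ones a median of -0.25 over 42, also with 1 called lower. The difference between these medians and that of the synthetases and factors was not tested.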

How the data were processed

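The titles of the samples gave each library's group and replicate number. The submitters' processing notes name edgeR, StringTie, featureCounts, Picard, STAR and Trim Galore, with no versions or roles; build, annotation and strand setting are not given in the sources used here. Per the file headers, the authors deposited an expected count, a TPM, an FPKM and a gene length per gene and library; the expected counts were not normalized, and TPM was not analysed further. A further table deposited by the authors lists log2 fold changes with p-values and adjusted p-values for 217 genes. The gene table in the reference matched 0 identifiers, so names are those of the deposited descriptions.

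Expected counts were rounded; genes passing filterByExpr (9244 of 10633) were compared in R 4.3.3 with edgeR 4.0.16 (TMM scaling, robust quasi-likelihood test), with no replicate block, Benjamini-Hochberg adjusted over all 9244. A call is an adjusted p below 0.05; fold changes are low minus high CO2, and replicates had a biological coefficient of variation of 23.1%. Simulated counts served to check the fit. They held no outlying libraries and no divided reads, so they do not show how the test behaves under either. Alternatives used DESeq2 1.42.0 and limma 3.58.1 on log2(FPKM + 1) or + 0.1 where the mean reached 1 FPKM. Others used the replicate block, other filters and scalings, each library left out, and neighbours summed. A further one removed a loess trend on log gene length, fitted without TMM scaling, so each library's general level went with it. Without a strand setting, reads of overlapping or antisense genes cannot be told apart.

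The genes, the lists and the outlying libraries were chosen with earlier results of these data known. The naming rule took called genes and those of the authors' table; the 2 most abundant genes of each role; the largest rise and fall without overlap, at 5 FPKM or more on average, in each role; genes with 3 or fewer counts in a group; and called genes of the other translation list. It named 29 genes; eIF3 subunits, further synthetases and factors and the loci that divided reads were chosen after their values were seen. A planned permutation test of summed shares was not used, since the genes were chosen with results known and 3 against 3 libraries cannot give a two-sided p below 0.10.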

Additional observations from a re-analysis of the deposited data

How the results depend on the processing

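With 3 libraries a group and a pair that stands apart, the number of calls depended on the libraries: leaving out 1 at a time gave 1 to 22 called genes of the family (0 to 15 synthetases, 0 to 6 initiation factors, 0 elongation factors and 1 release factor), and 0 to 15 other translation genes and 0 to 14 ribosomal proteins against 2 and 2 with all libraries; the counts of 22, 15, 6, 15 and 14 came from leaving out low 1. Without high 3 and low 1 the counts were 49 in all, 24 synthetases, 15 initiation, 7 elongation and 3 release factors, 29 other translation genes and 37 ribosomal proteins. DESeq2 called 5 genes (3 synthetases and 1 initiation factor beside ERF3A), as did an adjusted p below 0.1 in edgeR (3 synthetases, 1 initiation factor and ERF3A). Counting loci that divide reads as 1 gene left 0 calls in the family, so 0 release factors, and 2 each among other translation genes and ribosomal proteins. For ribosomal proteins, RLE scaling and library size alone gave 1 call each, both limma fits 0 and removal of the length trend 0.

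The replicate block left 0 genes of the family, 0 release factors, 0 other translation genes and 0 ribosomal proteins called, with an adjusted p of 0.0718 for ERF3A. The pairing it assumes is by number only: same-numbered libraries had correlations of -0.36, 0.08 and -0.43 in their deviations from group means.

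The median log2 fold change of the 108 genes was 0.10 to 0.15 with 1 library left out. It was 0.20 under library size alone, where that of all genes was 0.09, and -0.0001 with the length trend removed, where that of all genes was -0.10; relative to all genes it stayed at 0.08 to 0.15 in every setting run.

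Of 550 values for the 29 genes named by rule, 490 kept direction and side of the threshold, 31 passed it, 15 fell short of it and 14 changed sign, in 5 genes with small fold changes. For EF-1alpha (NO22G01450), leaving out 1 library gave -0.15 to 0.02, summing with its neighbour 0.0945, and leaving out high 3 and low 1 0.0700. IF-2 (NO27G00570) had -0.31 and -0.32 in the limma fits and -0.0010 with the length trend removed. eRF1 (NO11G00740) had 0.0045 and 0.0065 in the limma fits, -0.33 to 0.0511 with 1 library left out, -0.3848 without high 3 and low 1, and 0.0804 when summed with its neighbour. The aspartate enzyme NO13G01530 had -0.0794 with the length trend removed, and the glutamate enzyme NO08G03520 had 0.0314 under library size alone and 0.0254 and 0.0256 in the limma fits. The causes of these changes were not tested.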
